A study of Mus musculus with 3 samples.

Results

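Macrophages sorted from the heart were set against macrophages sorted from the kidney of C57BL/6 mice, gene by gene, from 1 RNA-sequencing library for each tissue. All mice were 8 weeks old and in the steady state, and the labels name no treatment or altered allele in either group. Flow cytometry selected cells positive for CD11b, the product of Itgam, and for the macrophage antigen that Adgre1 encodes, and negative for Ly6G and for Ly6C. A library of Kupffer cells, the macrophages of the liver sinusoids, came from the same sort and stands beside both as a level. The number of mice behind a library is not given in the sources used here. For each gene symbol 1 transcript was kept, the longest coding one where there was one. Genes with at least 1 RPKM in either library were compared, 10704 of 24453 symbols. RPKM counts reads per kilobase of exon per 1000000 reads, so that levels can be compared between genes.

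Tissue macrophages take up dying cells, iron and debris and present antigen to T cells, and their gene expression differs with the organ in which they live. In the heart, resident macrophages that carry LYVE1, a hyaluronan receptor, and FOLR2, a folate receptor, lie along vessels and between muscle cells, beside macrophages rich in MHC class II that are replaced from blood monocytes. In the kidney, macrophages form a network around the tubules, carry CX3CR1, the receptor of fractalkine, and are rich in MHC class II and complement C1q.

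With 1 library a side there was no replicate, so nothing was tested and every difference describes these libraries. The recovered depth was 14460612 reads for the heart and 15550844 reads for the kidney library. Brackets below give exact 95% Poisson intervals of the read counts, which cover counting error alone, because duplicates from PCR cannot be separated from independent molecules here. Differences were taken on log2(RPKM + 1), heart minus kidney, and a gene counted as higher in a library at 2 log2 units or more, 4-fold on this scale. This scale understates the difference of weakly expressed genes. Folds printed for single genes are ratios of RPKM, and the fold of a gene with 0 reads on one side is a lower bound against 3 reads. In sorted populations, fewer cells of a type and less RNA per cell cannot be told apart. Genes whose proteins the sort used were checked first. Adgre1 stood at 427 RPKM in the heart and 394 RPKM in the kidney library, and Ly6g had 2 reads in each. The Ly6C genes had opposite orders, with Ly6c2 at 9.74 and 5.58 RPKM and Ly6c1 at 10.7 and 14.5 RPKM. Itgam stood at 93.7 and 38 RPKM, but 68.7% of its exon bases overlap another gene model, and reads were counted on both strands.

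Most genes lay close to each other in both libraries. Of 10704 genes, 6858 (64.1%) differed by less than 2-fold, and the median difference was -0.28 log2 units. The heart library was at least 4-fold higher for 275 genes (2.57%) and the kidney library for 586 genes (5.47%). Differences of at least 16-fold were found for 42 genes higher in the heart and 31 higher in the kidney library. These shares are the background for every count of a gene list below. Just inside the filter stood Asb14, at 1.001 RPKM in the heart library with 0 reads in the kidney library, and just outside it Pcnx, at 0.383 and 0.999 RPKM.

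**Figure D1:**
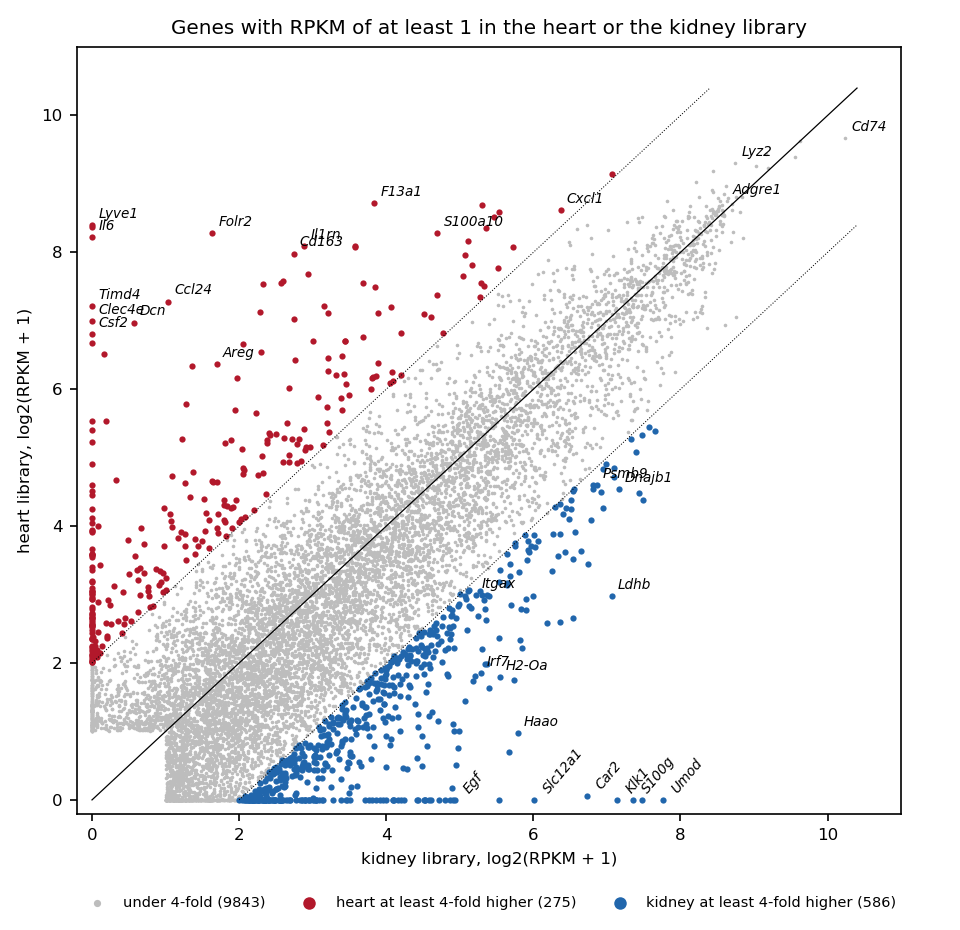
Each point is 1 of the 10704 genes, with its level in the kidney library on the horizontal and in the heart library on the vertical axis, both as log2(RPKM + 1). Dotted lines mark a 4-fold difference; 275 genes lie above them (red) and 586 below (blue), and genes with 0 reads in a library lie at 0.

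The balance of these counts moved with base composition. Genes higher in the heart library had a median GC content of 47.2% and genes higher in the kidney library one of 54.2%, beside 49.3% over all genes compared. In the tenth of genes with the lowest GC content the median difference was 0.16 log2 units, with 40 genes higher in the heart and 20 higher in the kidney library. In the tenth with the highest GC content it was -0.92 log2 units, with 12 and 147 genes. The heart library stood in the same relation to the liver library, where these medians ran from 0.27 to -0.49, while those of kidney minus liver ran from 0.15 to 0.29. After the median of each GC bin was subtracted, 403 genes counted as higher in the heart and 267 as higher in the kidney library. Of the 586 genes higher in the kidney library 247 remained, and of the 275 higher in the heart library 257. The part of GC content in single differences was not tested. GC-centred medians of the lists with at least 8 genes stand in the plot of lists, and centred counts are given below for several lists. They were added after the data were seen.

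**Figure D2:**
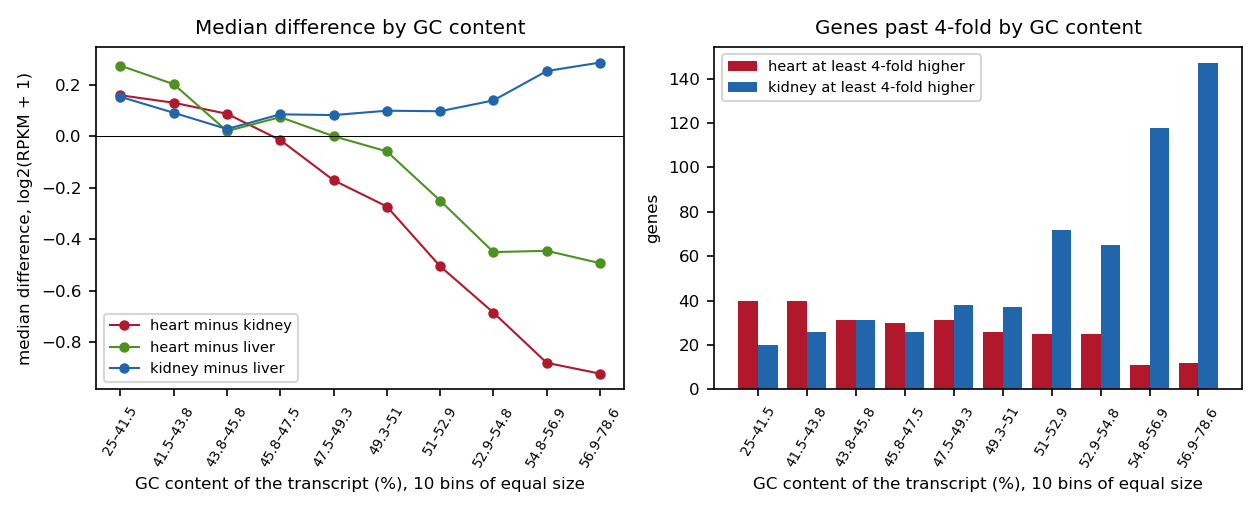
Genes were divided into 10 bins of equal number by the GC content of the transcript, given as a percent range on the horizontal axis. The left panel plots the median difference of log2(RPKM + 1) for each pair of libraries, where heart minus kidney falls by 0.92 below 0 in the last bin; the right panel plots the number of genes at least 4-fold higher in the heart (red) or kidney (blue) library, 12 and 147 in that bin.

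Genes that mark macrophages of any tissue were alike in both libraries, whereas many genes of LYVE1+ FOLR2+ resident macrophages were higher in the heart. Of 20 pan-macrophage genes none differed by 4-fold in either direction, with a median difference of 0.11 log2 units and a range from -0.79 to 1.28. Csf1r, the receptor of the growth factor on which macrophages depend, stood at 215 RPKM [211 to 219] in the heart and 312 RPKM [308 to 317] in the kidney library. Aif1, an actin-binding protein of macrophages, stood at 274 and 276 RPKM. Several of these genes were densely covered with reads, and the median size of a difference shrank from 0.77 log2 units below 0.1 reads per base of exon to 0.24 at 5 or more. The part of the authors' limit of 3 tags a position in this was not tested.

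Of 25 genes on the list of LYVE1+ FOLR2+ resident macrophages, 14 passed 4-fold on the heart side and none on the kidney side. Their median difference was 2.20 log2 units, against -0.28 over all genes. Lyve1 stood at 336 RPKM [330.2 to 342] in the heart library, at 15.1 RPKM in the liver library and at 0 reads in the kidney library, at least 4527-fold higher in the heart. It lies on chromosome 7 at chr7:110850607-110862953 of mm10. Folr2 stood at 311 RPKM in the heart, 355 RPKM in the liver and 2.1 RPKM in the kidney library, 148-fold (108 to 208) between heart and kidney. Of its exon bases 63.1% overlap another gene model. Timd4, the phosphatidylserine receptor TIM-4 with which macrophages bind dying cells, stood at 148 RPKM in the heart library and 0 reads in the kidney library. Heart and liver were thus both high and the kidney library low for Folr2 and Timd4, while Lyve1 was high in the heart library.

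Further members of that list had the same order. Cd163, the receptor that clears hemoglobin bound to haptoglobin, stood at 252 RPKM in the heart and 5.68 RPKM in the kidney library, 44.3-fold (40.1 to 49.1). F13a1, which encodes the catalytic chain of clotting factor XIII, stood at 422 RPKM in the heart, 5.6 RPKM in the liver and 13.3 RPKM in the kidney library. Cbr2, a carbonyl reductase, stood at 186 and 4.96 RPKM, and Retnla, a secreted resistin-like protein of alternatively activated macrophages, at 329 RPKM against 0 reads. Vsig4, a complement receptor of resident macrophages, stood at 41.5 RPKM in the heart library, 455 RPKM in the liver library and 0 reads in the kidney library. Igf1, an insulin-like growth factor, was nearer the threshold at 68.8 and 16 RPKM. Genes often named beside these differed less: the mannose receptor Mrc1 stood at 348 and 153 RPKM and the lectin Mgl2 at 372 and 352 RPKM. Mgl2 exceeds 5 reads per base of exon, where differences were small over all genes. After GC centring 15 of the 25 were higher in the heart library.

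Genes associated with CX3CR1+ macrophages and microglia were not shifted as a group beyond the median of all genes. Of 27 compared, 2 were higher in the heart and 1 in the kidney library, and 2 and 0 after GC centring. Their median of -0.36 log2 units became 0.27 with that centring. Cx3cr1 itself stood at 229 RPKM in the heart and 316 RPKM in the kidney library. Itgax, the integrin CD11c, stood at 6.93 RPKM in the heart and 36.2 RPKM in the kidney library, 5.23-fold (4.7 to 5.83). It was the gene counted on the kidney side and did not stay past the threshold after GC centring. P2ry6, a receptor of UDP that stimulates phagocytosis, stood at 51.3 and 166 RPKM. On the heart side stood Fcrls, an Fc receptor-like scavenger protein, at 327 RPKM against 39.9 RPKM, and Sparc, a matrix protein, at 11.1 against 1.64 RPKM. Complement C1qa stood at 67.9 RPKM in the heart and 164 RPKM in the kidney library, a difference of -1.25 log2 units that became -0.33 after GC centring.

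Genes of monocytes were divided, with those past the threshold all on the heart side. Of 22 compared, 8 were higher in the heart and 0 in the kidney library, 7 lay below 0, and the median was 1.40 log2 units. S100a4, a calcium-binding protein, stood at 80.1 RPKM [73.6 to 86.9] in the heart library, 0 RPKM in the liver and 1.56 RPKM in the kidney library, with 51.7% of its exon bases shared with another gene. Plac8 stood at 129 and 5.69 RPKM, 22.7-fold (17.6 to 29.9), and Ear2, a ribonuclease of monocytes and eosinophils, at 87.1 and 8.22 RPKM. Plac8 and Ear2 were higher still in the liver library, at 337 and 268 RPKM. Ccr2, the chemokine receptor of inflammatory monocytes, stood at 117 RPKM in the heart and 226 RPKM in the kidney library, the opposite order, and the lowest difference of the list was -1.72 log2 units.

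Dendritic cell genes were divided between the libraries. Cd209a, the lectin DC-SIGN of dendritic cells derived from monocytes, stood at 270.1 RPKM in the heart library, 0 RPKM in the liver library and 10.9 RPKM in the kidney library. Clec9a, which marks cross-presenting dendritic cells, stood at 0.126 RPKM in the heart and 7.24 RPKM in the kidney library. Batf3, the transcription factor on which those cells depend, stood at 1.37 and 12.2 RPKM. Of 14 members compared, 1 was higher in the heart and 2 in the kidney library (1 and 1 after GC centring), and their summed level was 642 and 427 RPKM. The part of such cells in other differences was not tested.

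The 20 genes ranked highest in each direction, among those with at least 10 RPKM in the higher library, had differences of at least 4.98 log2 units on the heart side and 4.51 on the kidney side. On the heart side 10 had 0 reads in the kidney library. Of the 20, 4 were higher still in the liver library (Timd4, Folr2, Ccl24 and Vsig4) and 7 had 0 reads there, among them Csf2, Ednrb and Emp1. Ednrb, an endothelin receptor, stood at 90.1 RPKM in the heart library and 8 reads in the kidney library. On the kidney side 16 of the 20 belong to lists of tubule cells and 16 had 0 reads in the heart library. The lists were chosen with earlier results of these data known, so this overlap is not independent of the ranking.

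**Figure D3:**
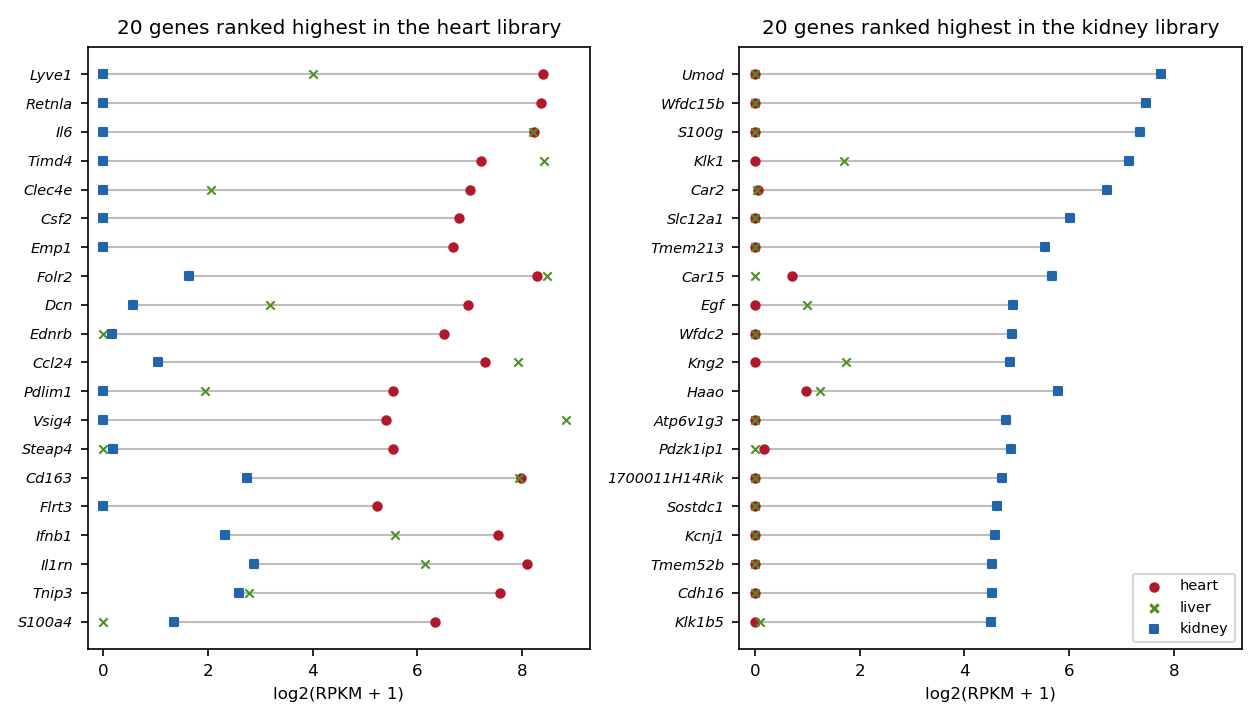
For each of the 20 genes with the largest difference in each direction, the level is plotted as log2(RPKM + 1) in the heart (red circle), liver (green cross) and kidney (blue square) library. Genes of the left panel include Timd4, Folr2 and Cd163, where the liver library stands near or above the heart library; in the right panel the heart library lies at or near 0, with 0 reads for 16 of the 20 genes.

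Cytokine genes past the threshold were all on the heart side. Of 27 interleukins and inflammatory cytokines compared, 8 were higher in the heart and 0 in the kidney library, with a median of 0.77 log2 units. Il6, a cytokine of the acute phase, stood at 297 RPKM [288 to 305] in the heart, 293 RPKM in the liver and 0 reads in the kidney library, at least 1743-fold between heart and kidney. Ifnb1, the type I interferon made early in a response, stood at 184 RPKM in the heart, 46.2 RPKM in the liver and 4.02 RPKM in the kidney library. Il1a stood at 413, 356 and 38.5 RPKM. The kidney library was the lowest of the 3 for each of these genes.

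Anti-inflammatory members stood with the inflammatory ones. Il1rn, the antagonist of the IL-1 receptor, stood at 271 RPKM in the heart and 6.37 RPKM in the kidney library, 42.5-fold (37.5 to 48.5). Il10 stood at 273 and 10.9 RPKM, 25-fold (21.8 to 28.7). Other abundant cytokines differed little: Il1b stood at 498 and 394 RPKM and Tnf at 263 and 155 RPKM. Il1b exceeds 5 reads per base of exon, where the median size of a difference over all genes was 0.24 log2 units. Il12b, a subunit of IL-12 and IL-23, stood at 12.1 and 1.39 RPKM. Csf2, the growth factor GM-CSF, stood at 110.4 RPKM [105 to 116] in the heart library and at 0 reads in the kidney library.

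Ligands of the EGF receptor stood on opposite sides. Areg, amphiregulin, a ligand with a part in tissue repair, stood at 81.3 RPKM [77.1 to 85.6] in the heart library, 0 RPKM in the liver library and 2.24 RPKM in the kidney library, 36.3-fold (26.7 to 50.6). Hbegf, the heparin-binding ligand, stood at 36.2 and 2.5 RPKM, 14.5-fold (11.7 to 18.1). Egf, which the distal nephron makes, had 0 reads in the heart library and stood at 29.5 RPKM in the kidney library. The receptor Egfr stood at 2.2 RPKM in the heart library and 0.098 RPKM in the kidney library. Of other growth factors, Pdgfb, a mitogen of mural cells, was on the kidney side at 3.51 and 20.6 RPKM. Of the 19 compared, 2 were higher in the heart and 1 in the kidney library, and 4 and 0 after GC centring.

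Chemokine genes higher in the heart library included attractants of neutrophils, monocytes and eosinophils, and Cxcl9 was higher in the kidney library. Of 14 CC chemokines 4 were higher in the heart and 0 in the kidney library, with a median of 1.02 log2 units and 13 of 14 above 0. Ccl24, an attractant of eosinophils, stood at 154 RPKM in the heart, 241 RPKM in the liver and 1.05 RPKM in the kidney library. Ccl7, an attractant of monocytes, was among the 10 most abundant genes of the heart library at 563 RPKM, against 133 RPKM in the kidney library. Ccl22 and Ccl17, ligands of CCR4, stood at 26.6 against 1.6 RPKM and at 8.42 against 1.01 RPKM. Abundant members lay closer, with Ccl4 at 614 and 522 RPKM and Ccl3 at 444 and 400.1 RPKM. Both exceed 5 reads per base of exon, a range in which 6 of 102 genes were 4-fold higher in the heart library, Ccl7 and F13a1 among them, and none in the kidney library.

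Neighbouring CXC genes on chromosome 5 differed by very different amounts. Ppbp (chr5:90768518-90770060, mm10), a chemokine of platelets, stood at 54.3 RPKM in the heart and 1.44 RPKM in the kidney library, and its neighbour Pf4 at 365 and 220.1 RPKM. Cxcl3 (chr5:90786101-90788093) stood at 186 and 11.8 RPKM, 15.7-fold (13.6 to 18.4), and Cxcl1 (chr5:90891245-90893115) at 393 and 81.8 RPKM, 4.8-fold (4.51 to 5.12). Cxcl2, next to Cxcl1, stood at 583 and 348 RPKM. In a second cluster Cxcl9 (chr5:92321331-92328079), a target of interferon gamma that attracts T cells, stood at 4.17 RPKM in the heart, 26.1 RPKM in the liver and 45.1 RPKM in the kidney library. Cxcl10, beside it, was on the other side at 214 and 93 RPKM. Ppbp, Cxcl3 and Cxcl1 were thus past 4-fold on the heart side and Cxcl2 was not, while Cxcl9 was 10.8-fold (9.26 to 12.7) higher in the kidney library.

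Among chemokine receptors, Ccr1 stood at 286 RPKM in the heart and 33.5 RPKM in the kidney library, 8.55-fold (8.1 to 9.03). Cxcr3, the receptor of CXCL9, stood at 0.56 and 7.09 RPKM. Of 9 receptors compared, 1 was higher in each library, and 1 in the heart and 0 in the kidney library after GC centring. Their median, 0.17 log2 units, took the other sign under 3 of 10 alternatives.

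Regulators of NF-kappaB, the transcription factor family behind many of these cytokines, were higher in the heart library in part. Of 25 compared, 3 were higher in the heart and 1 in the kidney library, with a median of 0.71 log2 units, and after GC centring 7 and 0. Tnip3, an inhibitor of NF-kappaB induced by it, stood at 191 RPKM in the heart, 5.89 RPKM in the liver and 5.03 RPKM in the kidney library. Birc3, an inhibitor of cell death, stood at 269 and 52 RPKM, and Tnfaip3, the feedback enzyme A20, at 123 and 40.9 RPKM. Nfkbia, the main cytosolic inhibitor, differed by 1.21-fold, at 213 and 176 RPKM. Casp4 and Nlrp3, sensors that drive release of IL-1, stood at 199.6 against 32.1 RPKM and at 112 against 26.3 RPKM, while Casp1 stood at 114 and 84.1 RPKM. Fas, the death receptor, stood at 104 and 7.02 RPKM.

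Enzymes that make or degrade lipid mediators were divided. Ptgs2, the inducible cyclooxygenase, stood at 249 RPKM [245 to 253] in the heart, 0.054 RPKM in the liver and 32.5 RPKM in the kidney library. Alox5, which makes leukotrienes, stood at 67.1, 0 and 15.7 RPKM. Hpgd, which degrades prostaglandins, stood at 225 and 306 RPKM. Of 18 genes of these pathways 3 were higher in the heart and 0 in the kidney library, with a median of 0.04 log2 units.

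Promoters of inflammatory genes are shown because several of the largest differences on the heart side belong to genes with well-known NF-kappaB sites. Sequences are from RefSeq for GRCm38.p6, the 150 bases before the annotated start, read 5′ to 3′ in the direction of transcription. Promoters were looked up for 11 genes of this kind and found for 10, and 5 of the 10 held an NF-kappaB consensus match, 1 a CRE and 1 an AP-1 site. Capitals mark the NF-kappaB match in the first 5 windows and the CRE, TGACGTCA, in that of Areg, and the windows were chosen after the matches were seen.
Il6, chr5:30012964-30013113, plus strand: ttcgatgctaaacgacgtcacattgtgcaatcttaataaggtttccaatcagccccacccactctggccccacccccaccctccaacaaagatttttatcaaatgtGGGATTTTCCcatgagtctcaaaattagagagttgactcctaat
Ifnb1, chr4:88522795-88522944, minus strand: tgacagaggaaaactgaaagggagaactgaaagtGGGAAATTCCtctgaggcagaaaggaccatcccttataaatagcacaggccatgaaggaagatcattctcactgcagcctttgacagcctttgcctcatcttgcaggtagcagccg
Cxcl1, chr5:90891095-90891244, plus strand: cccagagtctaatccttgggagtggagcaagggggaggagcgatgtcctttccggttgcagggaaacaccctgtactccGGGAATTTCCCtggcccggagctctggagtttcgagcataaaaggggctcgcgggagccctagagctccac
Cxcl3, chr5:90785951-90786100, plus strand: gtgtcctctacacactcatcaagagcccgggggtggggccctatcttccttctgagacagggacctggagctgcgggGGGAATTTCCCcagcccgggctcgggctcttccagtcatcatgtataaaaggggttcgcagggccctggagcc
Tnip3, chr6:65590248-65590397, plus strand: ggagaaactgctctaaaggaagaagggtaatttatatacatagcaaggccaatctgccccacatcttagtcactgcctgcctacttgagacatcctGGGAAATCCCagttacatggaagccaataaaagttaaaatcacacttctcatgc
Areg, chr5:91139449-91139598, plus strand: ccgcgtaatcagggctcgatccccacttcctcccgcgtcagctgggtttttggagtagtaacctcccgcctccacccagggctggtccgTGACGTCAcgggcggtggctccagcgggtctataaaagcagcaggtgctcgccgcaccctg

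The match lay 44 to 35 bases before the start in Il6, 116 to 107 in Ifnb1 and 54 to 45 in Tnip3. In Cxcl1 and Cxcl3 the match was an 11-base run read on both strands, 71 to 61 and 73 to 63 bases before the start. Across all genes with a promoter in the table, 8017 of the 10704 compared, the 250 bases before the start were searched on both strands. An NF-kappaB match was present in 9.47% of the 190 promoters of genes higher in the heart library, 4% of the 425 of genes higher in the kidney library and 4.49% of all compared. An AP-1 site, TGANTCA, was present in 11.1%, 5.18% and 4.47%. CRE, TGACGTCA, was present in 2.11%, 2.82% and 2.83%. Matches of different motifs overlapped in 8 of all 32851 promoters available, a wider set than those of the genes compared. A match is a description of letters and not a bound site, and no match in a window says nothing of the factor.

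Most genes of antigen presentation had lower values in the heart library, and few of them passed the threshold. Of 13 genes of MHC class II, 12 were below 0 with a median of -0.64 log2 units, and 2 were at least 4-fold higher in the kidney library. The abundant chains differed little. Cd74, the invariant chain and the most abundant gene of both libraries, stood at 814 and 1209.8 RPKM. H2-Aa stood at 671 and 751 RPKM and H2-Ab1 at 295 and 461 RPKM. Each of these chains exceeds 5 reads per base of exon, a range in which 0 of 102 genes were 4-fold higher in the kidney library. The part of the authors' limit of 3 tags a position in this was not tested. Larger differences belonged to the regulators of the pathway. Ciita, the transactivator on which class II expression depends, stood at 1.45 RPKM [1.2 to 1.73] in the heart and 23.6 RPKM [22.6 to 24.6] in the kidney library, 16.3-fold (13.6 to 19.8). H2-Oa, a chain of the DO heterodimer that restrains peptide loading, stood at 2.46 and 45.5 RPKM, 18.6-fold (13.3 to 26.6). H2-DMb2, a chain of the DM heterodimer that catalyses loading, stood at 52 and 168 RPKM. Ciita and H2-Oa, the genes past the threshold, stayed past it after GC centring, at -2.41 and -2.87, while the median of the list became -0.25.

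MHC class I and the immunoproteasome, which cuts the peptides it presents, had lower values in the heart library as well. Of 19 genes 18 were below 0, with a median of -1.57 log2 units that became -0.78 after GC centring, and 3 were higher in the kidney library, 1 after GC centring. Psmb9 and Psmb10, subunits of the immunoproteasome, stood at 23.2 against 115 RPKM and at 14.1 against 93.5 RPKM, and the third subunit, Psmb8, at 58.7 and 158 RPKM. The constitutive subunit Psmb7, which PSMB10 replaces, was on the other side at 162 and 104 RPKM. H2-M2, a nonclassical class I gene, stood at 1.73 RPKM in the heart, 33.1 RPKM in the liver and 32.6 RPKM in the kidney library. The light chain B2m stood at 599 and 581 RPKM, H2-K1 at 147 and 219 RPKM and H2-D1 at 124 and 231 RPKM. After GC centring H2-M2 remained past the threshold, at -3.45, and Psmb9 and Psmb10 stood at -1.38 and -1.77.

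Costimulatory and checkpoint genes included members on the heart side. Cd80, a ligand of CD28 and CTLA-4, stood at 49.3 RPKM in the heart and 3.68 RPKM in the kidney library, 13.4-fold (10.9 to 16.6), and Pvr, a ligand of TIGIT, at 73.2 and 9.01 RPKM. Cd274, the checkpoint ligand PD-L1, stood at 35.6 and 10.3 RPKM. Vsir, the checkpoint receptor VISTA, stood at 19.9 and 59.5 RPKM. Of 15 compared, Cd80 and Pvr were higher in the heart and 0 in the kidney library, with a median of 0.34 log2 units.

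Guanylate-binding proteins and immunity-related GTPases, which attack vacuoles that hold microbes and are targets of interferon gamma, mostly had higher values in the kidney library. Of 18 compared, 5 were higher in the kidney and 1 in the heart library, with 16 of 18 below 0. The median was -1.46 log2 units, -1.52 after GC centring and -0.86 without genes that share exon bases. Gbp8 stood at 1.02 RPKM [0.713 to 1.41] in the heart, 89.2 RPKM in the liver and 29.4 RPKM [27.7 to 31.2] in the kidney library, 28.9-fold (20.8 to 41.5). Gbp2b stood at 0.394, 169 and 15 RPKM, and Gbp4 at 1.65, 11.9 and 14.7 RPKM. The near-identical pair Tgtp1 and Tgtp2, between which reads may be split, stood at 12.7 against 65.7 RPKM and at 13.7 against 76.2 RPKM. Levels in the liver library were above those of the heart library for each of these 5 genes.

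Within a cluster of these genes on chromosome 3, neighbours stood on opposite sides. Gbp5 (chr3:142496934-142522344, mm10), which promotes inflammasome assembly, stood at 17.1 RPKM in the heart and 1.09 RPKM in the kidney library, 15.7-fold (11.8 to 21.3) higher in the heart. Gbp7, the next gene, stood at 51 and 47.4 RPKM. Gbp2b (chr3:142594847-142619176), further along the same strand, was 38-fold (23.2 to 66.9) higher in the kidney library. Members of this family are similar in sequence, and how reads that match several of them were counted is not given in the sources used here.

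Type I interferon response genes mostly had lower values in the heart library, which had the higher level of Ifnb1. Of 31 compared, 25 were below 0, with a median of -0.89 log2 units that became -0.51 after GC centring, and 3 were higher in the kidney and 1 in the heart library. Irf7, the transcription factor that amplifies interferon production, stood at 2.62 RPKM [2.04 to 3.31] in the heart, 159 RPKM in the liver and 37.9 RPKM [35.7 to 40.2] in the kidney library. Ifi44 had 0 reads in the heart library and stood at 7.1 RPKM in the kidney library. Oas1a, a sensor of double-stranded RNA, stood at 22.3 and 92.6 RPKM. Irf1, a transcription factor induced by interferon, stood at 65.9 and 209 RPKM. On the heart side stood Ifit1, which binds foreign RNA, at 136 RPKM against 21.8 RPKM.

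Windows from this group are shown because the interferon response motif, GAAANNGAA, is the common element of such promoters. Of 12 genes of antigen presentation and interferon looked up, promoters were found for 10, of which 4 held this motif and 1, H2-M2, an NF-kappaB match. Capitals mark the motif, read on the opposite strand in Gbp2b.
Oas1a, chr5:120907526-120907675, minus strand: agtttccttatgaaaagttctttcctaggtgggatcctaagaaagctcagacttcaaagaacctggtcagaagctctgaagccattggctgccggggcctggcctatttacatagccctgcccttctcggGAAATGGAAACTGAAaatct
Tgtp1, chr11:48992247-48992396, minus strand: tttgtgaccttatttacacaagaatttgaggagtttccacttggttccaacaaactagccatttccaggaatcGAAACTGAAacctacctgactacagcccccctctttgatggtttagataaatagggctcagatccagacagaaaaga
Tgtp2, chr11:49064213-49064362, minus strand: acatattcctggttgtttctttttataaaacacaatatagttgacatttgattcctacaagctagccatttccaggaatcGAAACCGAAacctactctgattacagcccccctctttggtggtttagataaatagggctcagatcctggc
Gbp2b, chr3:142594697-142594846, plus strand: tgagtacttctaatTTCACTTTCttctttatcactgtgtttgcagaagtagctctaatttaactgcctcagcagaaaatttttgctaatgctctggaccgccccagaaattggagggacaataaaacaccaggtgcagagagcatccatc

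Oas1a holds overlapping copies between 20 and 6 bases before the start, Tgtp1 and Tgtp2 a copy each in a similar setting, and Gbp2b a copy 136 to 128 bases before the start. Over all promoters of genes compared the motif was present in 6.72%, in 8.24% of those of genes higher in the kidney library and in 9.47% of those of genes higher in the heart library.

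**Figure D4:**
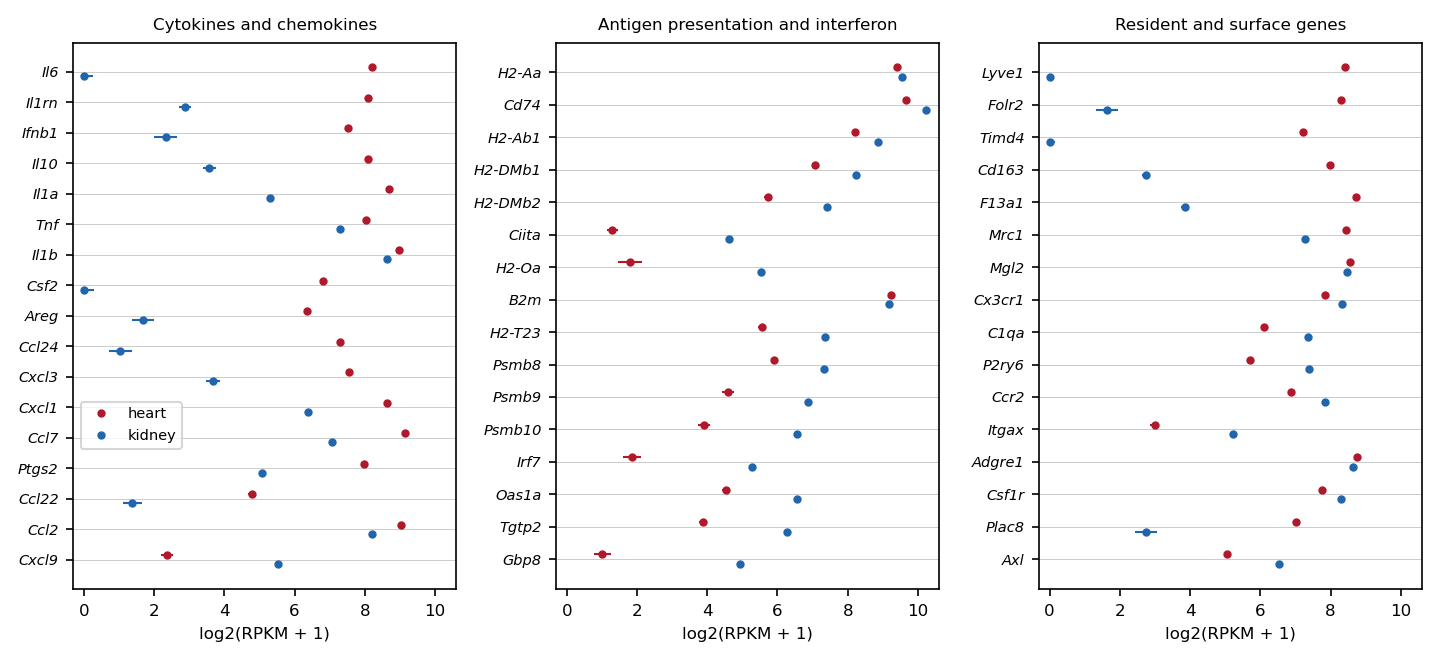
Levels of genes in 3 groups are plotted as log2(RPKM + 1) in the heart (red) and kidney (blue) library, with bars for the exact 95% Poisson interval of the reads, which is hidden by the point where reads were many. Il6, Csf2 and Areg lie far to the right in the heart library, Ciita, H2-Oa, Irf7 and Gbp8 in the kidney library. Il1b, H2-Aa, B2m, Mgl2 and Adgre1 differ by less than 2-fold. Each of these exceeds 5 reads per base of exon, where the median size of a difference over all genes was 0.24 log2 units.

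Receptors for microbes and debris differed gene by gene. Of 28 C-type lectins 4 were higher in the heart and 2 in the kidney library. Clec4e, the receptor Mincle for mycobacterial glycolipids and dead cells, stood at 127 RPKM [123 to 131] in the heart, 3.14 RPKM in the liver and 0 reads in the kidney library. Its neighbour on chromosome 6, Clec4d, stood at 100 RPKM in the heart and 3.15 RPKM in the kidney library, 31.8-fold (24.8 to 41.3). Clec4n, the receptor Dectin-2 in the same cluster, stood at 335 and 105 RPKM, and Clec4a3 at 289.8 and 287 RPKM.

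Trem1, which amplifies inflammatory signals, stood at 24.6 RPKM in the heart and 0.256 RPKM in the kidney library, 96.2-fold (54.8 to 187), and Trem3 at 18 RPKM against 0 reads. Of scavenger receptors, Colec12 stood at 11.6 RPKM in the heart library and 0 reads in the kidney library, and Msr1 at 236 and 72.2 RPKM. Scarb1, the receptor of high-density lipoprotein, stood at 1.63 RPKM in the heart, 33.1 RPKM in the liver and 19.9 RPKM in the kidney library. Anxa1, a phospholipid-binding protein that limits inflammation, stood at 365 and 43.2 RPKM. Among genes of Toll-like receptors, Tlr3 and the chaperone Unc93b1 were on the kidney side, at 2.26 and 13.3 RPKM and at 23.4 and 111 RPKM. Of the 20 complement genes 2 were higher in each library, and on the kidney side stood Cd59a, which blocks the membrane attack complex, at 0.558 and 10.5 RPKM.

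Of the genes of coagulation and matrix turnover, those past the threshold were on the heart side. Of 15 coagulation genes 3 were higher in the heart and 0 in the kidney library (5 and 0 after GC centring), and 5 lay below 0. Their median was 1.24 log2 units, but 0.36 without the filter and 0.42 at a pseudocount of 5. Besides F13a1 the 3 were S100a10, a subunit of a plasminogen receptor, at 309.5 and 24.9 RPKM, and Thbd, thrombomodulin, at 27.9 and 3.13 RPKM. Anxa2, the partner of S100A10 in that receptor, stood at 205 and 65.9 RPKM. Of 27 matrix genes 6 were higher in the heart and 0 in the kidney library (10 and 0 after GC centring), while 9 lay below 0 and the list summed to 1104 RPKM in the heart and 1207 RPKM in the kidney library. Higher in the heart were the protease Mmp19 at 18.2 and 0.965 RPKM and Thbs1, thrombospondin-1, at 18.4 and 2.77 RPKM. Timp1, an inhibitor of such proteases, stood at 7.21 RPKM against 0 reads. Mmp13, the most abundant of the list and covered by over 5 reads per base of exon, stood at 403 and 368 RPKM. Of 9 S100 genes 4 were higher in the heart library, S100a6 at 138 and 13.9 RPKM among them, and S100g, the calbindin of the distal tubule, had 0 reads there and 163 RPKM in the kidney library.

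Adhesion molecules included more genes on the kidney side. Of 24 integrins, ICAMs and selectins with their ligands, 4 were higher in the kidney and 0 in the heart library, 2 and 0 after GC centring. Icam2, a ligand of LFA-1, stood at 0.73 RPKM in the heart and 22.5 RPKM in the kidney library, 30.8-fold between them. Selplg, the ligand of P-selectin, stood at 5.29 and 29.7 RPKM, and Itga8, an integrin chain of mesenchymal cells, at 0.373 and 5.97 RPKM. Cd44, a hyaluronan receptor, stood at 208 and 68.8 RPKM. The shared integrin chain Itgb2 stood at 209.9 and 239 RPKM.

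Transcription factors of macrophages had counts that moved with base composition. Of 42 compared, 3 were higher in the heart and 2 in the kidney library, and 7 and 0 after GC centring. Nr4a2 and Tfec stood at 6.54 against 0.163 RPKM and at 26.5 against 4 RPKM, and Myc at 7.28 and 33.4 RPKM. Of 29 immediate early genes 3 were higher in the heart and 1 in the kidney library, and 7 and 0 after GC centring. Their median of -0.01 log2 units became 0.74 with that centring and took the other sign under 5 of 11 alternatives. Fosl2, a subunit of AP-1, stood at 38.2 and 5.13 RPKM. Fos and Egr1, early response factors named after their values were seen, stood at 216 against 349.5 RPKM and at 120.3 against 152 RPKM. High levels of both were thus present in both libraries. Dnajb1, a heat shock cochaperone, stood at 22.3 RPKM in the heart, 6.95 RPKM in the liver and 142 RPKM in the kidney library. Hspa8, which exceeds 5 reads per base of exon, stood at 377 and 382 RPKM. Of genes of cell survival, Bcl2l1 stood at 5.93 and 56.1 RPKM, 9.46-fold (8.24 to 10.9) higher in the kidney library, and Mcl1 at 206 and 76 RPKM.

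Metabolic lists contained single large differences. Of 22 iron and heme genes 3 were higher in the heart and 0 in the kidney library, with 17 of 22 above 0 and a median of 0.50 log2 units against -0.28 over all genes. Steap4, a metal reductase, stood at 45.6 and 0.144 RPKM and Cp, ceruloplasmin, at 51 and 2.85 RPKM, and Hmox1, the enzyme that degrades heme, at 321 and 271 RPKM. Fabp4, a fatty acid carrier, stood at 139 RPKM in the heart, 30 RPKM in the liver and 3.85 RPKM in the kidney library. The cholesterol transporters were divided, with Abca1 at 40.5 and 8.32 RPKM and Abcg1 at 11.6 and 59.6 RPKM. Of 29 genes of lipid handling, 3 were higher in the heart and 1 in the kidney library, and 4 and 0 after GC centring. Ldhb, a lactate dehydrogenase subunit, stood at 6.89 RPKM in the heart, 18.2 RPKM in the liver and 133 RPKM in the kidney library, 19.3-fold (16.2 to 23.2). Pfkfb3 and Pfkfb4, which set the rate of glycolysis, stood on opposite sides at 51 against 9.52 RPKM and at 7.79 against 48.8 RPKM. Medians of glycolysis (-0.44), oxidative phosphorylation (-0.22) and cytosolic ribosomal proteins (-0.29) took the other sign after GC centring, at 0.43, 0.10 and 0.06.

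**Figure D5:**
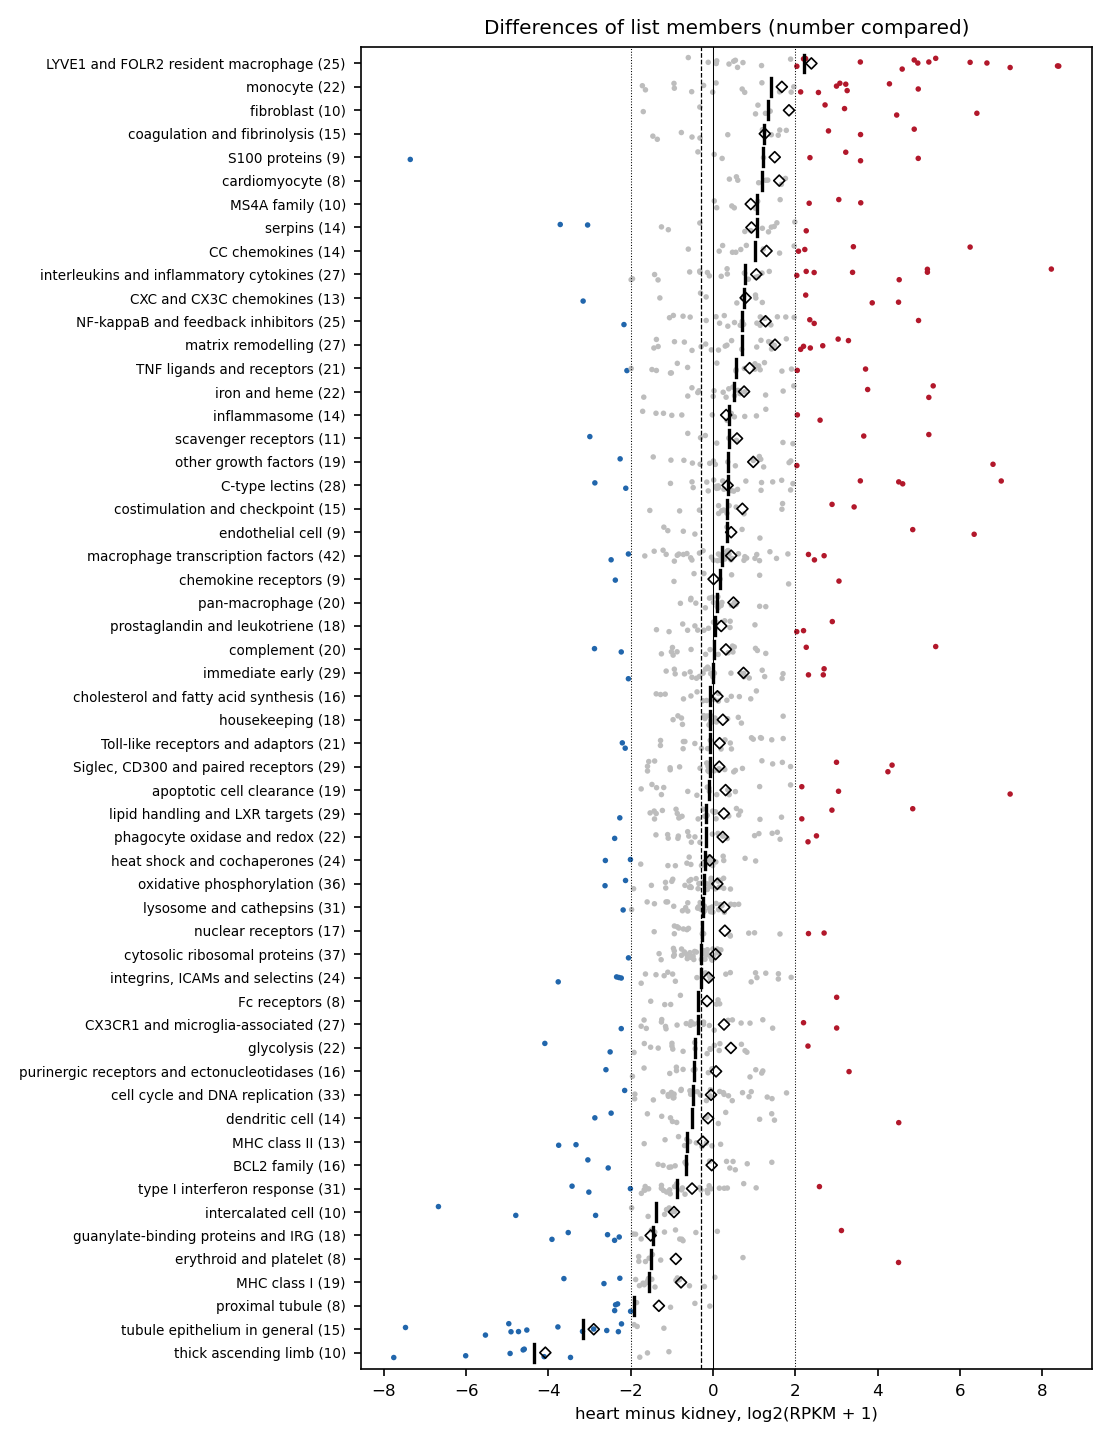
Differences of log2(RPKM + 1), heart minus kidney, are plotted for the members of each gene list with at least 8 genes compared (number in brackets), in red at 2 or more and in blue at -2 or less. Black bars are list medians, open diamonds GC-centred medians, and the dashed line the median of all genes, -0.28; the LYVE1 and FOLR2 list lies highest at 2.20 and the thick ascending limb lowest at -4.35.

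Most of the largest differences on the kidney side belonged to genes listed here for the nephron. Over 6 lists of tubule cells 54 of 86 genes were compared. Of these, 33 were higher in the kidney library and 0 in the heart library, and 36 had 0 reads in the heart library. Those 36 passed the filter through the kidney library alone, so they could not have counted on the heart side. Umod, uromodulin, the chief protein of the thick ascending limb (chr7:119462708-119479262, mm10), stood at 215 RPKM [211 to 219.9] in the kidney library and had 0 reads in the heart and liver libraries. Slc12a1, which carries salt across the cells of that limb, had 63.4 RPKM there, and Kcnj1, their potassium channel, 23 RPKM. Genes of that segment summed to 0.016 RPKM in the heart and 388 RPKM in the kidney library. Genes of the distal convoluted and connecting tubule summed to 2.97 and 332 RPKM, those of principal cells to 1.71 and 60.6 RPKM and those of intercalated cells to 2.28 and 158 RPKM.

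Proximal tubule genes had a smaller median difference, -1.93 log2 units, than genes of the thick ascending limb, -4.35, although the proximal segment makes up much of the kidney cortex. The median of intercalated cell genes was smaller still, at -1.38. Of 8 proximal genes compared, 4 were higher in the kidney library, 2 after GC centring. The list summed to 232 RPKM in the heart and 325 RPKM in the kidney library, with members that differed little, the closest at -0.08 log2 units. Slc13a3, a carboxylate transporter, stood at 12.5 and 53 RPKM, Gpx3, a secreted peroxidase, at 4.4 and 27.3 RPKM, Keg1 at 0 reads and 4 RPKM and Kap at 0 reads and 4.17 RPKM. The epithelial surface gene Epcam, named after its value was seen, stood at 4.99 RPKM in the kidney library. Klk1, the kallikrein of the connecting tubule, stood at 139.8 RPKM, and 7 of 11 genes of the symbol family Klk were higher in the kidney library, Klk1 and 6 Klk1b genes, near-identical relatives whose reads may be shared. Car2, a carbonic anhydrase of intercalated cells, stood at 105 RPKM in the kidney library and had 1 read in the heart library. Without the genes of all lists of other cells, 550 of 586 genes were higher in the kidney and 263 of 275 in the heart library. The part of tubule RNA in the differences of other genes was not tested.

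Markers of stromal and blood cells stood on both sides. Of 10 fibroblast genes 4 were higher in the heart and 0 in the kidney library, and 2 lay below 0, the lowest at -1.70 log2 units. The list summed to 242 RPKM in the heart and 158 RPKM in the kidney library, and Dcn and Lum made up much of the heart sum. Dcn, decorin, a proteoglycan of fibroblasts, stood at 125 RPKM [120.5 to 129] in the heart, 8.15 RPKM in the liver and 0.48 RPKM in the kidney library, and Lum, lumican, at 21 RPKM against 0 reads. The collagen gene Col3a1 stood at 1.78 and 0.152 RPKM. Cardiomyocyte genes were weak: of 8 compared none passed 4-fold (3 on the heart side after GC centring), the whole list summed to 39.2 RPKM in the heart and 14.5 RPKM in the kidney library, and Mb, myoglobin, stood at 2.38 RPKM against 0 reads. Of 7 genes of T and NK cells compared, 3 were higher in the heart and 0 in the kidney library, and 2 lay below 0. The whole list summed to 29.1 RPKM in the heart and 17.5 RPKM in the kidney library. Cd2 and Gzma stood at 8.09 and 5.4 RPKM in the heart library and 0 reads in the kidney library. Cd79b, of the B cell receptor, stood at 32.9 and 168 RPKM, while Ms4a1, the B cell marker CD20, had 0 reads in the kidney library. No hemoglobin gene passed the threshold, with Hba-a1 at 15.6 and 57.1 RPKM. Whether Dcn, Fabp4 and Ednrb, which fibroblasts or endothelial cells also express, came from macrophages was not tested.

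Across 159 families of genes whose symbols share their letters, with at least 8 members compared, 116 had a median below 0. The median over all genes was itself -0.28 log2 units, and family medians were not GC-centred. On the heart side the Ccl family had the largest share past the threshold, 4 of 15 genes (26.7%). On the kidney side stood Klk (63.6%), then Asb (27.3%), adaptors of ubiquitin ligases, and Gbp (27.3%). Asb2 stood at 0.232 RPKM in the heart and 9.46 RPKM in the kidney library and Asb13 at 1.55 and 12.2 RPKM. Of 48 Mrpl and 28 Mrps genes, which encode mitochondrial ribosomal proteins, 5 each were higher in the kidney and 0 in the heart library. Their medians were -0.60 and -0.66 log2 units before any GC centring, beside -0.28 over all genes.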

How the data were processed

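The authors deposited RPKM values of 34711 RefSeq transcripts. HOMER's analyzeRepeats.pl made them, per the file headers, over exons on both strands, scaled to 1000000 per library, with an option that counts at most 3 tags at a position. STAR, CASAVA and mm10 are named in the submitters' processing notes, without a version. Low RPKM values times exon length were whole multiples of a step in each library (each value checked, to a limit of 500 reads, was within 0.1 read of a whole number), which gave reads and depth. Over 1 transcript per gene the heart library held 8751978 reads, the liver library 10373696 and the kidney library 9485368. A floor of 3 reads on 2000 bp corresponded to 0.104 RPKM in the heart and 0.0965 RPKM in the kidney library.

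From these were computed differences of log2(RPKM + 1) with a pseudocount of 1, exact 95% Poisson intervals, and ratio intervals by the exact 95% Clopper-Pearson method on the heart library's share of a gene's reads (Python 3.11.15, SciPy 1.17.1). GC content and shared exon bases came from GENCODE M21, promoters from RefSeq. The 68 gene lists (1334 symbols, 6 not found) and all other choices were made with earlier results of these data known. Genes were named by a rule: the 20 largest differences in each direction at 10 RPKM or more, the 10 most abundant genes of each library (exons of at least 300 bp), up to 8 members of each list with the largest differences and the 3 most abundant, the most similar member, up to 6 of each family described, genes at the filter and genes of the sort. Exceptions are stated. Alternatives changed the pseudocount, filter, scaling, transcript and genes left out.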

Additional observations from a re-analysis of the deposited data

How the results depend on the processing

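Counts of genes at least 4-fold higher, 275 in the heart and 586 in the kidney library, moved most with the pseudocount: 692 and 1527 at 0.1, and 108 and 105 at 5. Values scaled to TPM gave 637 and 1239 genes. TPM values were larger than RPKM and the pseudocount stayed at 1, so this setting also made the pseudocount smaller relative to the values. Leaving out genes that share exon bases left 6351 genes, of which 202 were higher in the heart and 343 in the kidney library. Over these fewer genes the counts cannot be set directly beside 275 and 586. GC centring, over 10525 genes, gave 403 and 267. The share of these genes on the heart side was 31.9%, and 41.1% after median ratio scaling, 50.7% at a pseudocount of 5 and 60.1% after GC centring, the last chosen after seeing the data. The median difference of all genes was -0.28 and became -0.17 at a pseudocount of 5, -0.13 without the filter, -0.10 after median ratio scaling and 0.00 after GC centring. Of the lists with 5 or more genes, 10 had a median at least 1 log2 unit higher in the heart and 9 in the kidney library; these became 1 and 5 at a pseudocount of 5. No filter left 4 on the heart side. A filter of 5 RPKM left 5 on the kidney side, because lists with fewer than 5 genes were not counted. The lists of the distal convoluted tubule, principal cells, intercalated cells and proximal tubule dropped out in this way. Leaving out the lists of other cells left 2 on the kidney side, a fall fixed by removing the tubule and erythroid lists themselves. Over 60 lists with 5 or more genes, 559 medians under an alternative stayed within the limits set and 72 moved. The 40 genes ranked highest kept their side of the threshold in all 400 values. They were picked for differences of at least 4.51 log2 units in these same data, so this was close to fixed in advance. Leaving out densely covered genes dropped some of them, Lyve1, Il6 and Umod among them, and dropped genes gave no value. The median of 23 of the 60 lists took the other sign under at least 1 alternative. No paired analysis was possible because each tissue has 1 library. Beyond the construction of each alternative, the cause of these shifts was not tested. Counting error limits genes with few reads, and the effect of the authors' limit of 3 tags a position on densely covered genes was not tested.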
